A study of Homo sapiens with 6 samples.

Results

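The 44 genes described here encode the machinery that makes ribosomes: subunits and factors of RNA polymerase I, nucleolar proteins, the small nucleolar ribonucleoproteins that modify ribosomal RNA, and the assembly factors of the small and large ribosomal subunits. They were taken as a fixed list of gene symbols and matched to the Ensembl IDs of the count table, which holds 61487 IDs. All 44 symbols matched 1 ID each, and all 44 passed the filter on low counts and stand among the 16591 genes tested. The labels name the cells as H2170, an established line of human lung squamous cell carcinoma, an identity not tested here. Each group had 2 libraries of polyadenylated RNA. IDRmut cells expressed ACK1 carrying the change named IDRmut and fused to GFP, WT cells expressed wild-type ACK1 fused to GFP, and Control cells expressed GFP alone, so all groups carried GFP. TNK2 is the gene of ACK1, a tyrosine kinase of the cytoplasm. The labels call both ACK1 groups overexpression without naming the residues that were altered. IDR commonly stands for intrinsically disordered region, a stretch of protein without fixed structure that can drive condensate formation. The sources used here do not give the promoter of the constructs, nor whether the cells were a pool or a clone. The series was made to ask how ACK1 condensates act on STAT5 and on gene expression.

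RNA polymerase I transcribes the long ribosomal RNA precursor in the nucleolus. The precursor is then modified by small nucleolar ribonucleoproteins, cut, and folded with ribosomal proteins by a large set of assembly factors, first in the small subunit processome and the pre-60S particles and later in the cytoplasm. Proliferating tumour cells make many ribosomes, and many genes of this machinery are textbook targets of the transcription factor MYC. The measurement here is the messenger RNA of the machinery, not ribosomal RNA, which poly-T capture largely leaves out.

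Library totals lay between 19128111 and 33540998 counts, the second WT library being the deepest. TNK2, the overexpressed gene, was at 1762 and 1455 CPM (counts per 1e6 of the TMM-scaled library total) in IDRmut, 3514.5 and 3613 CPM in WT, and 41.1 and 43.1 CPM in Control. Both ACK1 groups were therefore far above Control, and IDRmut was below WT, so the change in the protein and the lower TNK2 level cannot be told apart in any difference between the ACK1 groups. Of the 8 squamous markers examined, SOX2, KRT14, TP63, KRT5, KRT6A, KRT17 and DSG3 were expressed and PKP1 was near 0 in all groups. Their summed level was 1390.0 to 1515 CPM in IDRmut, 961 to 986 CPM in WT and 1877 to 1882 CPM in Control. KRT14 and SOX2 carried most of this sum and were called lower in IDRmut than in Control. TP63, KRT5, KRT6A and DSG3 were called higher, KRT6A averaging 96.9 CPM in IDRmut and 28.6 CPM in Control. KRT17 was not called there, averaging 30.4 CPM in IDRmut, 11.7 CPM in WT and 28.3 CPM in Control. The summed level of 4 epithelial markers was 75.5 to 83.9 CPM in IDRmut, 39.0 to 39.3 CPM in WT and 13.2 to 14.2 CPM in Control, nearly all of it from KRT8 and KRT18, with EPCAM and CDH1 near 0 in all 6 libraries; the part of these shifts in the results was not tested. Of 4 fibroblast markers, COL1A2 averaged 879 CPM in IDRmut, 670 CPM in WT and 829 CPM in Control, while COL1A1, PDGFRB and DCN each averaged at most 1.70 CPM in any group. Summed leukocyte markers stayed at or below 0.736 CPM in every library. Summed endothelial markers were at 5.50 to 6.05 CPM in IDRmut, 7.10 to 7.81 CPM in WT and 7.81 to 8.77 CPM in Control. Most of this came from KDR, which was called lower in IDRmut than in Control and than in WT. Whether the replicate libraries stem from separate cultures is not stated in the labels. The p-values thus cover the spread between these libraries alone, which may be technical.

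Most of the 44 genes were higher in IDRmut than in Control and than in WT, by small amounts. Against Control, 24 of the 44 genes rose in IDRmut and 0 fell, with a median log2 fold change of 0.14 beside 0.0040 over all genes tested. The called rises lay between 8.29% and 32.4%, with a median of 14.4%, and no gene changed by a factor of 1.5 or more. Calls came from the quasi-likelihood test of edgeR at a threshold of 0.05 on the p adjusted by Benjamini-Hochberg over all genes tested. The share called was 54.5% in the 44 genes, against a background of 31.6% of all genes tested, and 15.6% of all genes were called higher. Of the 7805 genes whose mean reached 20 CPM, a limit chosen after the values were seen, 40.8% were called, 15.2% higher and 25.6% lower; the corresponding shares were 43.9% for WT over Control and 36% for IDRmut over WT. Both IDRmut libraries stood above both Control libraries for 35 of the 44 genes and below them for 4, while the replicates of 63.3% of all genes tested did not overlap. In bulk RNA, a change in every cell and a change in the mix of cells cannot be told apart. Without the first Control library 13 genes were called higher, without the second 14, and DESeq2 called 13; none of these settings called a gene lower.

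The WT group went the other way for some genes, and fewer of them were called. Against Control, 3 of the 44 genes rose in WT and 7 fell, or 22.7% called against a background of 35.0% of all genes tested, so the share called was below the background. The median log2 fold change was -0.03, beside 0.0017 over all genes. Both WT libraries stood above both Control libraries for 11 genes and below them for 21, while 69.2% of all genes tested had replicates that did not overlap. The direction depends on the scaling: library totals without composition scaling gave 8 higher and 2 lower with a median of 0.03, and upper-quartile scaling gave 4 higher and 5 lower with a median of 2.7e-04. The count of lower genes was 4 without the first Control library, 4 without the first WT library, 3 without the second WT library, 4 with DESeq2, and 13 and 12 without the first and second IDRmut library. UBTF and PPAN were called lower, and NIP7 and EBNA1BP2 higher, under every one of the 15 alternatives tried.

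Set directly against WT, IDRmut had 25 of the 44 genes higher and 1 lower, 59.1% against a background of 26.5% of all genes tested, of which 12.3% were called higher. The median log2 fold change was 0.18, beside -6.8e-04 over all genes. Both IDRmut libraries lay above both WT libraries for 39 genes and below them for 2, while 61.5% of all genes tested had replicates that did not overlap, 30.1% above and 31.4% below. The called rises lay between 7.38% and 50.3%, with a median of 17.1%. The count of higher genes was 18 without the second WT library, the lowest of the alternatives, and 22 with DESeq2; 17 of the 25 were called higher under all 15 alternatives. The 1 lower gene, EBNA1BP2, was not called with DESeq2 or without either WT library. Because the comparisons share libraries, their counts are not independent of each other.

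**Figure D1:**
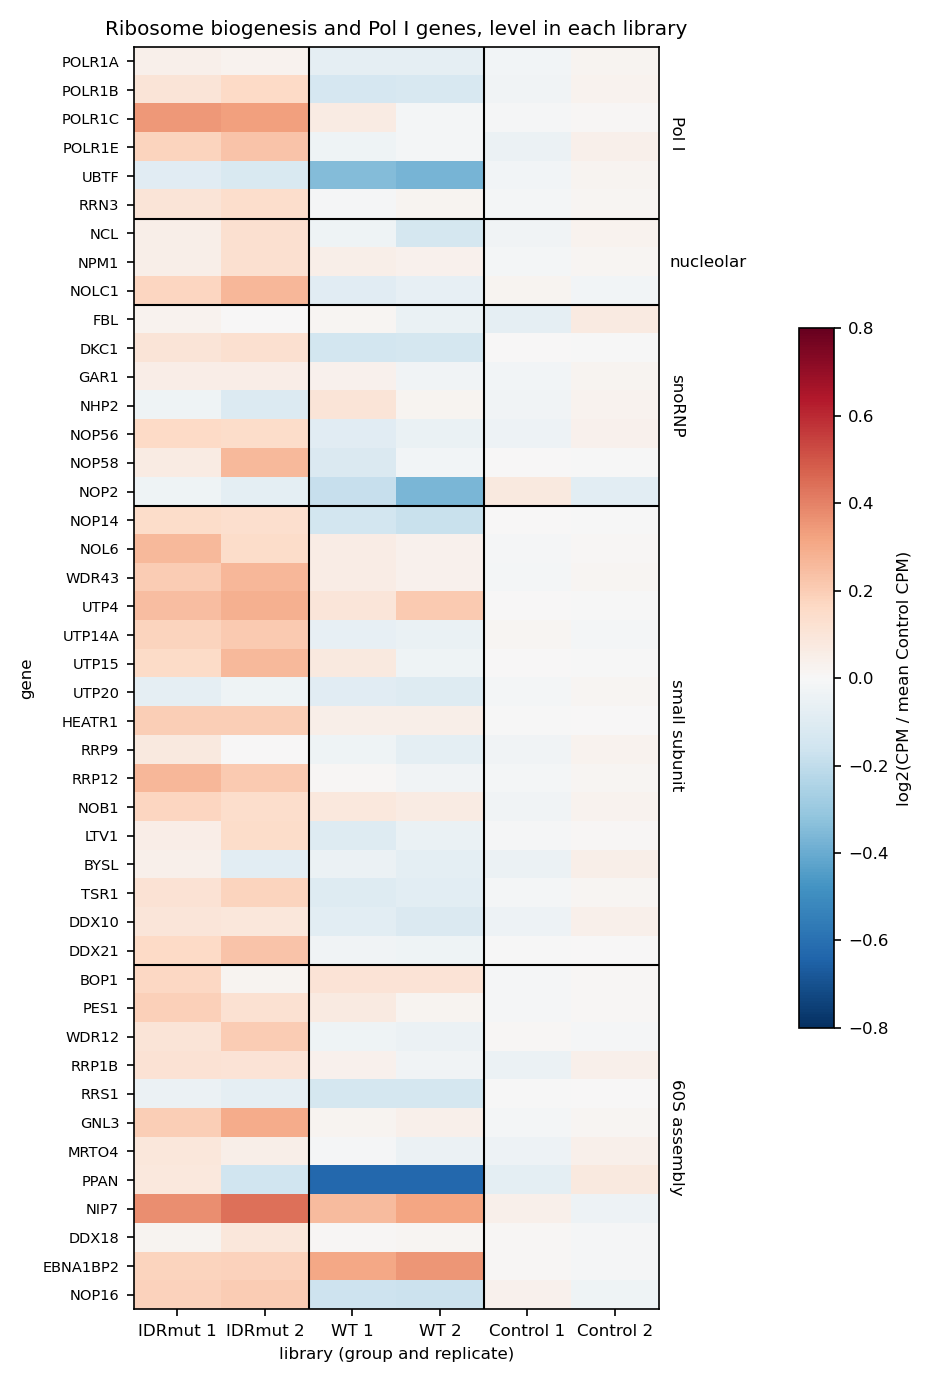
Level of each of the 44 genes in each library, as the log2 ratio of its CPM to the mean CPM of the Control libraries (colour scale), with libraries on the horizontal axis and genes by role on the vertical axis. Most genes are above the Control mean in both IDRmut libraries, while WT libraries are near or below it, with NIP7 and EBNA1BP2 above it and PPAN the lowest.

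**Figure D2:**
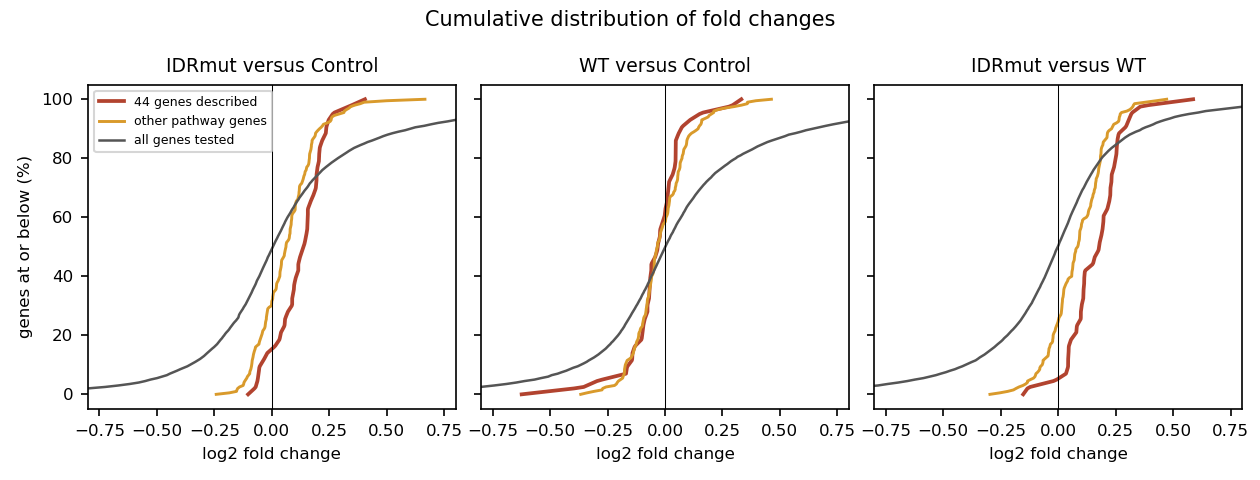
Cumulative share of genes (vertical axis, %) at or below each log2 fold change (horizontal axis) for the 44 genes, 131 other genes of the pathway and all genes tested, in each comparison. The middle of the 44 genes lies to the right of that of all genes, with shorter tails on both sides, in IDRmut versus Control (median 0.14) and IDRmut versus WT (median 0.18), and lie near 0 in WT versus Control (median -0.03, or 0.03 with library totals alone).

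Summed over the 44 genes, the level was 8103 and 8316 CPM in IDRmut, 7392 and 7321 CPM in WT, and 7425 and 7574 CPM in Control. Both IDRmut sums were above the sums of the other 4 libraries, and with TMM scaling both WT sums were below both Control sums. The order of WT and Control depends on this scaling, whose factors were 1.02 in both WT libraries and 0.979 and 0.973 in Control. NPM1 and NCL supply much of this sum. Per kilobase of exon, NPM1 was also the most abundant of the 44, at 293 RPKM in IDRmut, 284 RPKM in WT and 275 RPKM in Control. The median difference between replicates, as the SD over the mean, was 2.64% in IDRmut, 1.5% in WT and 1.73% in Control.

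MYC was measured beside these genes because so many of them are its known targets. Its level was 156 and 145 CPM in IDRmut, 96.8 and 101 CPM in WT, and 107 and 104 CPM in Control. The IDRmut libraries were the 2 highest, and WT and Control differed little. The log2 difference was 0.51 ± 0.05 (SE) for IDRmut over Control and 0.60 ± 0.05 for IDRmut over WT, with adjusted p of 2.4e-07 and 4.1e-08 by edgeR, and -0.09 ± 0.05 for WT over Control, with an adjusted p of 0.17. MYC was thus called higher in IDRmut than in Control and than in WT, as were 24 and 25 of the 44 genes. Of the 44, 13 were called in no comparison. The part of MYC in the change of these genes was not tested.

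The E-box CACGTG is the DNA element that MYC binds with its partner MAX, and it was looked for in RefSeq promoter windows (GRCh38.p14) that run from 250 bases before to 50 bases after the start of each gene. Windows were at hand for 36 of the 44 genes; those of NOLC1, POLR1E, NOP58, RRP12, RRP1B, DDX18, BOP1 and RRS1 were not used. The motif reads the same on both strands. It stood in 14 of the 36 windows (38.9%), against 31 of 129 windows of other pathway genes (24.0%), 8.99% of 16523 windows of genes tested and 7.26% of all 35116 windows. In 12 of the 14 it lay within 50 bases of the start, on either side. Whether the motif goes with the calls was not tested. Of the 21 windows of genes called higher in IDRmut than in WT, 5 held it (23.8%). Of the other 15 windows, 9 held it (60%). NOLC1, POLR1E, NOP58 and RRP12, also called higher in IDRmut than in WT, had no window at hand. Of the 20 windows of genes called higher in IDRmut than in Control, 7 held it (35.0%), and of the 16 not called, 7 held it (43.8%). A match is a run of letters, not evidence of binding. The stretches around the motif are shown for the 5 genes called higher in IDRmut than in WT and for the 3 uncalled genes whose difference was nearest to 0, so that both kinds can be compared; they run 5′ to 3′ along the gene's strand, with the E-box in capitals.
NOP14: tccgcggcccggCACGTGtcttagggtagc
UTP14A: accttgggcCACGTGgaaaccaggggc
WDR43: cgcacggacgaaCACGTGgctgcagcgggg
LTV1: gtcctggggctgCACGTGtggtgaggccta
NOL6: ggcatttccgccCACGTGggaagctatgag
FBL: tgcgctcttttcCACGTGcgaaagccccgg
UTP20: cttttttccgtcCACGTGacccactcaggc
BYSL: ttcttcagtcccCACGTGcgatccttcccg
The stretches lie at chr4:2963374-2963403 (minus strand) for NOP14, chrX:129905914-129905940 (plus) for UTP14A, chr2:28894658-28894687 (plus) for WDR43, chr6:143843354-143843383 (plus) for LTV1 and chr9:33473894-33473923 (minus) for NOL6. Those of the uncalled genes lie at chr19:39846356-39846385 (minus) for FBL, chr12:101280083-101280112 (plus) for UTP20 and chr6:41921515-41921544 (plus) for BYSL. Apart from the motif, the flanking letters differ from gene to gene. The E-box begins between base 4 and base 29 of the transcript in NOP14, WDR43, LTV1, NOL6, FBL and BYSL, 10 bases before the start in UTP20 and 241 bases before it in UTP14A.

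**Figure D3:**
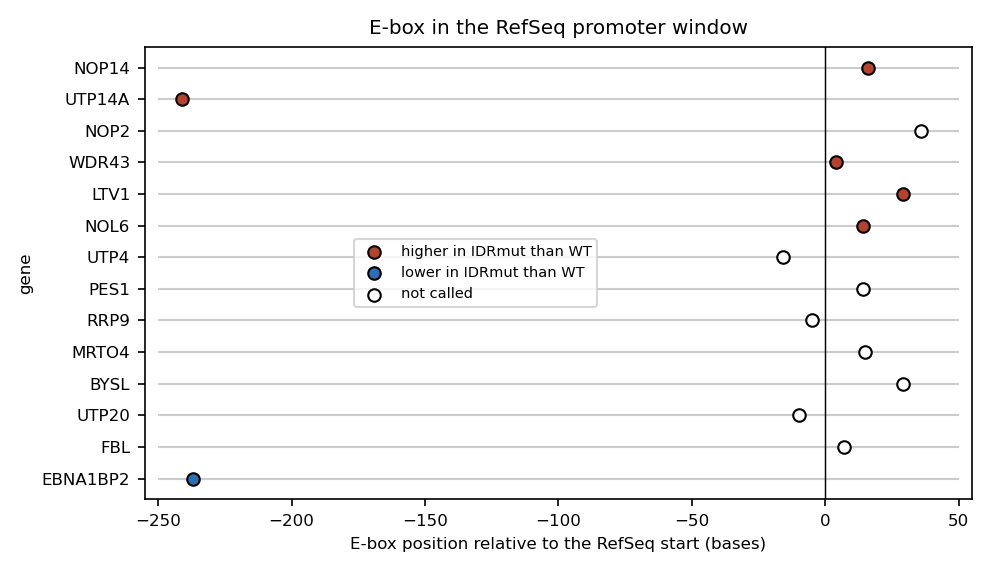
Position of the E-box relative to the RefSeq start (horizontal axis, bases) in the 14 promoter windows that hold it, 1 gene a line, coloured by the call in IDRmut versus WT and ordered by that log2 fold change. Red and white points mix near the start, and the E-boxes of UTP14A and EBNA1BP2 lie far before it.

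Among the 6 genes of RNA polymerase I and its factors, 3 rose in IDRmut against Control and 0 fell. WT against Control had 0 rises and 2 falls, and 5 of the 6 genes were higher in IDRmut than in WT. The shares called were 50%, 33.3% and 83.3%, beside 31.6%, 35.0% and 26.5% of all genes tested. POLR1C, a subunit shared by RNA polymerases I and III (ENSG00000171453, chromosome 6, 43509702 to 43562419), was at 46.5 and 45.9 CPM in IDRmut, 38.2 and 36.1 CPM in WT, and 36.4 and 36.7 CPM in Control. Only the IDRmut libraries stood apart, and the WT and Control libraries overlapped. Its log2 fold change was 0.34 ± 0.06 over Control (SE, edgeR adjusted p 2.3e-04) and 0.32 ± 0.05 over WT (adjusted p 3.1e-04); other genes overlap 18.2% of its exon bases. UBTF, the factor that binds and opens the ribosomal DNA (ENSG00000108312, chromosome 17, 44205033 to 44221626), was at 167 and 164 CPM in IDRmut, 139.8 and 138 CPM in WT, and 175 and 181 CPM in Control. Here WT was the lowest group and IDRmut lay between it and Control, with no overlap. UBTF fell by 0.36 on the log2 scale in WT (± 0.04 SE, edgeR adjusted p 1.4e-06) and was 0.26 ± 0.04 higher in IDRmut than in WT (adjusted p 1e-04). Its value for IDRmut over Control was -0.10 ± 0.04, with an adjusted p of 0.053 by edgeR, and it was called lower with offsets for GC content and length (adjusted p 0.0046) and without the first IDRmut library (0.018).

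POLR1B, the second largest subunit of RNA polymerase I, rose in IDRmut (0.13) and fell in WT (-0.13), but each of these calls held in only 7 of the 15 alternatives, while its difference of 0.26 between IDRmut and WT held in all 15. POLR1E, a subunit that helps initiation, rose in IDRmut over Control (0.20) and was higher than in WT (0.23). POLR1A, the largest subunit, was higher in IDRmut than in WT by 0.10, at an adjusted p of 0.047 by edgeR, a call kept in 5 of the 15 alternatives. RRN3, which links the polymerase to its initiation complex, was called in none of the comparisons, with an adjusted p of 0.053 by edgeR for IDRmut over Control. RRN3 has transcribed pseudogene copies, so reads could be split between them.

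Of the 3 nucleolar organisers, NOLC1 rose in IDRmut and the other 2 were not called against Control. The share called, 33.3%, was near the 31.6% of all genes tested. NOLC1, a chaperone of small nucleolar ribonucleoproteins (ENSG00000166197, chromosome 10, 102152176 to 102163871), was at 469 and 498 CPM in IDRmut, 390.1 and 398 CPM in WT, and 422 and 408 CPM in Control. The groups did not overlap and the order was IDRmut, Control, WT. Its log2 fold change in IDRmut was 0.22 ± 0.04 over Control (edgeR adjusted p 2.7e-04) and 0.30 ± 0.04 over WT (adjusted p 1.7e-05), and WT over Control gave -0.08 ± 0.04 (adjusted p 0.13). NCL, nucleolin, which binds ribosomal RNA precursors (ENSG00000115053, chromosome 2, 231453531 to 231483641), was at 948 and 1000.1 CPM in IDRmut, 895 and 831 CPM in WT, and 899 and 934 CPM in Control. NCL kept the same order of groups, but the WT libraries differed from each other by more than the gap between WT and Control. NCL was called only between IDRmut and WT (0.18 ± 0.04, edgeR adjusted p 0.0034), and not without the second WT library. NPM1, nucleophosmin, a histone and assembly chaperone of the nucleolus, had 0.09 for IDRmut over Control, 0.04 for WT over Control and 0.05 for IDRmut over WT, with no call; it has many pseudogene copies that could take up reads.

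Of the 7 genes of the small nucleolar ribonucleoproteins and of ribosomal RNA modification, 3 rose in IDRmut over Control. The share called, 42.9%, was near the 40.8% of genes averaging at least 20 CPM, and above the 31.6% of all genes tested. The box C/D core genes NOP56 and NOP58 and the pseudouridine synthase gene DKC1 rose in IDRmut over Control and were higher in IDRmut than in WT. NOP56 (ENSG00000101361, chromosome 20, 2652145 to 2658393) was at 269 and 267 CPM in IDRmut, 227 and 233 CPM in WT, and 235 and 247 CPM in Control, with a log2 fold change of 0.15 ± 0.04 in IDRmut over Control (edgeR adjusted p 0.0052) and 0.22 ± 0.04 over WT (adjusted p 2.9e-04). DKC1, dyskerin (ENSG00000130826, chromosome X, 154762742 to 154777689), was at 348 and 355 CPM in IDRmut, 293 and 295 CPM in WT, and 326 and 324 CPM in Control. No groups overlapped for DKC1, with Control between the ACK1 groups. Its log2 fold changes were 0.11 ± 0.03 in IDRmut over Control (edgeR adjusted p 0.018), -0.14 ± 0.03 in WT over Control (adjusted p 0.0038) and 0.26 ± 0.03 in IDRmut over WT (adjusted p 2.7e-05); the WT fall was not called with library totals alone or without the first WT library, and the IDRmut rise was not called with DESeq2, without either Control library or without either WT library. NOP58 had 159 and 182 CPM in IDRmut, the widest gap between replicates among the called genes of this class, and its rise over Control of 0.17 was lost with DESeq2, without either Control library and without the second IDRmut library.

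FBL, fibrillarin, the methyltransferase of the box C/D particles, and GAR1 and NHP2, partners of dyskerin in the box H/ACA particles, were not called in any comparison. FBL had log2 values between -0.02 and 0.03 over the 3 comparisons and GAR1 between -0.0014 and 0.06. NHP2 had the opposite sign to most of the set, with -0.07 for IDRmut over Control and -0.13 for IDRmut over WT (edgeR adjusted p 0.34 and 0.069), and with offsets for GC content and length it was called lower in both (adjusted p 0.046 and 0.029). Between IDRmut and WT it was also called lower with library totals alone (0.030) and without the first IDRmut library (0.026). NOP2, a methyltransferase of the large ribosomal RNA, had only 42 and 44 counts in IDRmut, 38 and 56 in WT, and 44 and 37 in Control. An overlapping gene covers 54.4% of its exon bases, so these low counts are uncertain.

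Genes of the small subunit processome and of 40S maturation rose in IDRmut in 11 of 16 cases against Control and fell in 0. They were higher than in WT in 11 of 16. The share called was 68.8% in each comparison, beside 31.6% and 26.5% of all genes tested. WDR43, a processome protein (ENSG00000163811, chromosome 2, 28894643 to 28948222), was at 282 and 295 CPM in IDRmut, 256 and 251 CPM in WT, and 243 and 248 CPM in Control. The groups did not overlap, and WT lay close to Control. Its log2 fold change in IDRmut was 0.23 ± 0.04 over Control (edgeR adjusted p 1.3e-04) and 0.19 ± 0.04 over WT (adjusted p 0.0011). UTP4, a processome protein also known as cirhin (ENSG00000141076, chromosome 16, 69131291 to 69231130), was at 162 and 167 CPM in IDRmut, 146 and 158 CPM in WT, and 137 and 136 CPM in Control. Both ACK1 groups were above Control for UTP4, by 0.27 ± 0.04 in IDRmut (edgeR adjusted p 1.7e-04) and by 0.16 ± 0.04 in WT (adjusted p 0.0099). The difference of 0.11 ± 0.04 between them was not called (edgeR adjusted p 0.070). The WT rise of UTP4 was kept in 11 of the 15 alternatives. RRP12, an export and processing factor (ENSG00000052749, chromosome 10, 97356358 to 97426076), was at 151 and 145 CPM in IDRmut, 126 and 123 CPM in WT, and 124 and 127 CPM in Control. Only IDRmut stood apart for RRP12, by 0.24 ± 0.04 over Control (edgeR adjusted p 3e-04) and 0.25 ± 0.04 over WT (adjusted p 2.1e-04).

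NOP14 (ENSG00000087269, chromosome 4, 2937933 to 2963385), a processome protein whose antisense gene overlaps 17.1% of its exon bases, was at 117 and 116 CPM in IDRmut, 95.4 and 93.3 CPM in WT, and 106 and 105 CPM in Control. Its 3 groups were fully apart, IDRmut highest and WT lowest. NOP14 rose by 0.14 ± 0.04 in IDRmut (edgeR adjusted p 0.015), fell by 0.17 in WT (adjusted p 0.0051), and was 0.31 ± 0.04 higher in IDRmut than in WT (adjusted p 2.6e-05); the WT fall was not called with library totals alone or without the second WT library, and the IDRmut rise was not called with DESeq2 or without either Control library. The remaining called rises in IDRmut over Control were those of UTP15 (0.21), NOL6 (0.21), HEATR1 (0.20), UTP14A (0.19) and the RNA helicase gene DDX21 (0.19), then NOB1, the nuclease that makes the 3′ end of 18S ribosomal RNA (0.16), and TSR1, a late 40S factor (0.15). All of these except NOB1 were also higher in IDRmut than in WT. The rises over Control of UTP15, NOB1 and TSR1 were kept in 11, 12 and 13 of the 15 alternatives. Those of NOL6, HEATR1, UTP14A and DDX21 were kept in all 15. LTV1 and the helicase gene DDX10 were called only between IDRmut and WT (0.18 and 0.20). UTP20, RRP9 and BYSL were not called in any comparison, with log2 values between -0.10 and 0.10.

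Among the 12 assembly factors of the 60S subunit, calls went in both directions in WT over Control and between the ACK1 groups. In IDRmut 6 rose and 0 fell against Control, and in WT 2 rose and 3 fell. Between the ACK1 groups 4 were higher and 1 lower in IDRmut. The shares called were 50%, 41.7% and 41.7%, beside 31.6%, 35.0% and 26.5% of all genes tested. Of genes averaging at least 20 CPM, 40.8%, 43.9% and 36% were called, so the WT share was below that background. NIP7, a pre-60S factor (ENSG00000132603, chromosome 16, 69337996 to 69343111), was at 98.6 and 103 CPM in IDRmut, 90.8 and 95.1 CPM in WT, and 78.3 and 74.1 CPM in Control. Both ACK1 groups were above Control for NIP7, by 0.40 ± 0.05 in IDRmut (edgeR adjusted p 6.4e-06), the largest rise among the 44 genes, and by 0.29 ± 0.05 in WT (adjusted p 1.6e-04); COG8 overlaps 20.2% of its exon bases. EBNA1BP2, a nucleolar pre-60S factor (ENSG00000117395, chromosome 1, 43164175 to 43270936), was at 86.3 and 86.8 CPM in IDRmut, 94.5 and 97.5 CPM in WT, and 76.7 and 76.0 CPM in Control. It was the only one of the 44 genes called higher in WT than in IDRmut: 0.18 ± 0.05 in IDRmut over Control (edgeR adjusted p 0.0056), 0.33 ± 0.04 in WT over Control (adjusted p 1.4e-05) and -0.15 ± 0.04 in IDRmut over WT (adjusted p 0.014). Other genes overlap 20.5% of its exon bases.

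GNL3, nucleostemin, a nucleolar GTPase (ENSG00000163938, chromosome 3, 52681156 to 52694492), was at 255 and 272 CPM in IDRmut, 225 and 229 CPM in WT, and 219 and 224 CPM in Control. Only IDRmut stood well apart for GNL3, by 0.25 ± 0.04 over Control (edgeR adjusted p 1.4e-04) and 0.21 ± 0.04 over WT (adjusted p 5.9e-04). NOP16 (ENSG00000048162, chromosome 5, 176383938 to 176388975), whose exons are partly overlapped by another gene, was at 61.6 and 62.4 CPM in IDRmut, 48.3 and 48.2 CPM in WT, and 55.5 and 53.0 CPM in Control. Its groups were fully apart with Control between the ACK1 groups, at 0.19 ± 0.05 in IDRmut over Control (edgeR adjusted p 0.0081), -0.17 ± 0.05 in WT over Control (adjusted p 0.015) and 0.36 ± 0.05 in IDRmut over WT (adjusted p 3.5e-05). The WT fall of NOP16 was lost with library totals alone, with DESeq2, and without the first Control library or either WT library, and its IDRmut rise was lost with DESeq2 and without the second Control library.

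PPAN (ENSG00000130810, chromosome 19, 10106289 to 10111634) had the largest change of the set, between WT and the other groups. It was at 16 and 13.5 CPM in IDRmut, 9.80 and 9.80 CPM in WT, and 14.3 and 15.9 CPM in Control. WT was far below and IDRmut overlapped Control. The log2 difference was -0.62 ± 0.10 for WT over Control (edgeR adjusted p 1.2e-04) and 0.59 ± 0.10 for IDRmut over WT (adjusted p 2.8e-04). The read-through gene PPAN-P2RY11 and its neighbour P2RY11 overlap 59.8% of the PPAN exon bases, so the PPAN counts are uncertain. P2RY11 itself was at 11 and 7.82 CPM in IDRmut, 5.73 and 4.94 CPM in WT, and 9.18 and 8.12 CPM in Control, and like PPAN it was called lower in WT than in Control (-0.72 ± 0.15, edgeR adjusted p 0.0014). Among the remaining factors, PES1 (0.16) and WDR12 (0.16), subunits of one pre-60S complex, rose in IDRmut over Control. These calls were kept in 12 and 11 of the 15 alternatives. WDR12 was also higher in IDRmut than in WT (0.20). BOP1, the third subunit of that complex, was not called in any comparison, with 0.10 in IDRmut over Control and 0.11 in WT over Control. RRS1, a 5S particle factor, fell in WT by 0.14, a call kept in 7 of the 15 alternatives, and DDX18, MRTO4 and RRP1B were not called.

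**Figure D4:**
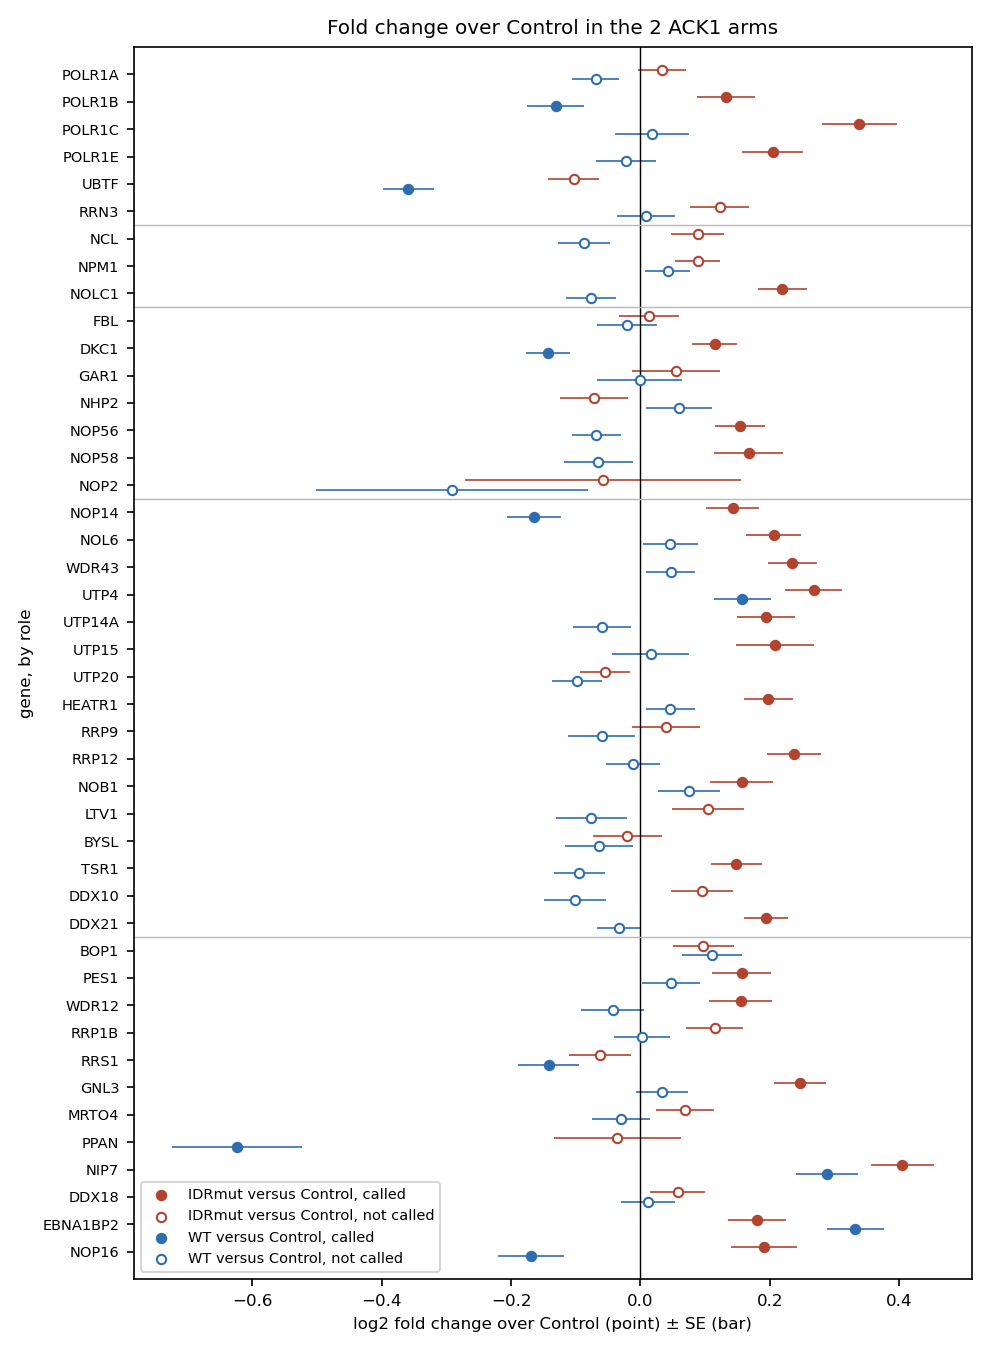
Log2 fold change over Control (point, horizontal axis) with its SE (bar) for each of the 44 genes, in IDRmut (red) and in WT (blue), filled where called at an adjusted p under 0.05, with genes by role from RNA polymerase I at the top to 60S assembly at the bottom. All 24 called IDRmut points are to the right of 0, and the called WT points lie on both sides, 3 higher and 7 lower (8 higher and 2 lower with library totals alone).

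Across the 44 genes, the 3 comparisons fell into a few patterns. The most frequent, with 15 genes, was a rise in IDRmut over Control, no call in WT over Control and a higher level in IDRmut than in WT. Another 4 genes, POLR1B, DKC1, NOP14 and NOP16, rose in IDRmut and fell in WT, and 3 genes, UTP4, NIP7 and EBNA1BP2, rose in both. The order of the mean levels was IDRmut, Control, WT from high to low for 20 genes and IDRmut, WT, Control for 15. Control was the highest group for 6 genes, UBTF, NOP2, UTP20, BYSL, RRS1 and PPAN, and none of these was called in IDRmut against Control. In 13 genes no comparison gave a call.

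A wider list held 131 other genes of ribosome biogenesis; whether it differs from the 44 genes was not tested. In IDRmut over Control 31 rose and 3 fell, 26.0% called against a background of 31.6%, with a median of 0.06; the count of rises was 12 without the first Control library, 13 without the second and 10 with DESeq2. In WT over Control 12 rose and 18 fell (22.9% called, background 35.0%), with a median of -0.03 and with 20 higher and 11 lower under library totals alone. Leaving out a library changed these counts: rises were 7 without the first and 6 without the second Control library and 7 without either WT library, and falls were 10 without the second Control or second WT library, 31 without the first IDRmut library and 28 without the second. Between IDRmut and WT 43 were higher and 4 lower in IDRmut (35.9% called, background 26.5%), with a median of 0.09. Of these, higher genes numbered 22 without the first WT library, 15 without the second and 22 with DESeq2. By class, 25 of 53 other 60S factors, 13 of 45 other small subunit factors and 4 of 14 exosome genes were higher in IDRmut than in WT. The same was so for 1 of 9 other RNA polymerase I genes and 0 of 10 small nucleolar ribonucleoprotein assembly genes. Over all genes tested, 12.3% were called higher and 14.2% lower in this comparison. The shares of all genes called higher and lower were 15.6% and 15.9% in IDRmut over Control, and 17.4% and 17.6% in WT over Control.

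The largest called rises of the wider list in IDRmut over Control were those of WDR3, a small subunit processome protein, at 0.67 ± 0.04 (edgeR adjusted p 4.4e-09), EXOSC4, an exosome subunit, at 0.41, and TAF1A, a subunit of the RNA polymerase I selectivity factor, at 0.38. WDR3 was at 254 and 262 CPM in IDRmut, 204 and 213 CPM in WT, and 169 and 157 CPM in Control. Its groups were fully apart in that order, and it rose in WT as well, by 0.36 ± 0.04 (edgeR adjusted p 5.2e-06). The 3 falls in IDRmut were those of TCOF1 (-0.24), the Treacher Collins gene that acts in ribosomal DNA transcription, EXOSC10 (-0.15) and NSA2 (-0.15). In WT over Control TAF1A (0.46) and the chaperone helicase gene RUVBL2 (0.36) rose beside WDR3, and RBM28 (-0.37), RIOK1 (-0.32) and MDN1 (-0.27) fell most. Among the genes called between IDRmut and WT, SURF6 (0.40), RIOK1 (0.33) and EXOSC4 (0.33) were the most raised in IDRmut, and RUVBL2 (-0.30), NOC2L (-0.23) and DDX49 (-0.19) the most lowered. The uncalled gene DDX47 had a larger value, 0.47 ± 0.18 (edgeR adjusted p 0.060), and is named after its values were seen.

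Genes of the other RNA polymerases served as a comparison. Of 21 genes specific to RNA polymerase III and its factors, 4 rose and 1 fell in IDRmut over Control and 3 rose and 1 fell in WT over Control, with medians of 0.02 and -0.03. Of 7 genes specific to RNA polymerase II, 1 rose and 1 fell in each ACK1 group. The shares called over Control were 23.8% in IDRmut and 19% in WT for the first list, and 28.6% in each for the second. All of these are below the background of 31.6% of all genes tested in IDRmut and 35.0% in WT. POLR2A, the largest subunit of RNA polymerase II, fell in both, by 0.21 and 0.18 on the log2 scale in IDRmut and WT. POLR3G, an RNA polymerase III subunit, rose in both by 0.33. The next largest called changes of both lists were those of POLR3D (0.18), CRCP (0.17) and GTF3C1 (-0.17) in IDRmut over Control, and of POLR2G (0.26), GTF3A (0.15) and POLR3B (-0.22) in WT over Control. Between IDRmut and WT, POLR2D (0.19) and POLR3E (0.18) were among the genes called higher, and GTF3C6 (-0.17) and GTF3A (-0.16) were called lower. Whether the 44 genes differ from these lists was not tested.

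**Figure D5:**
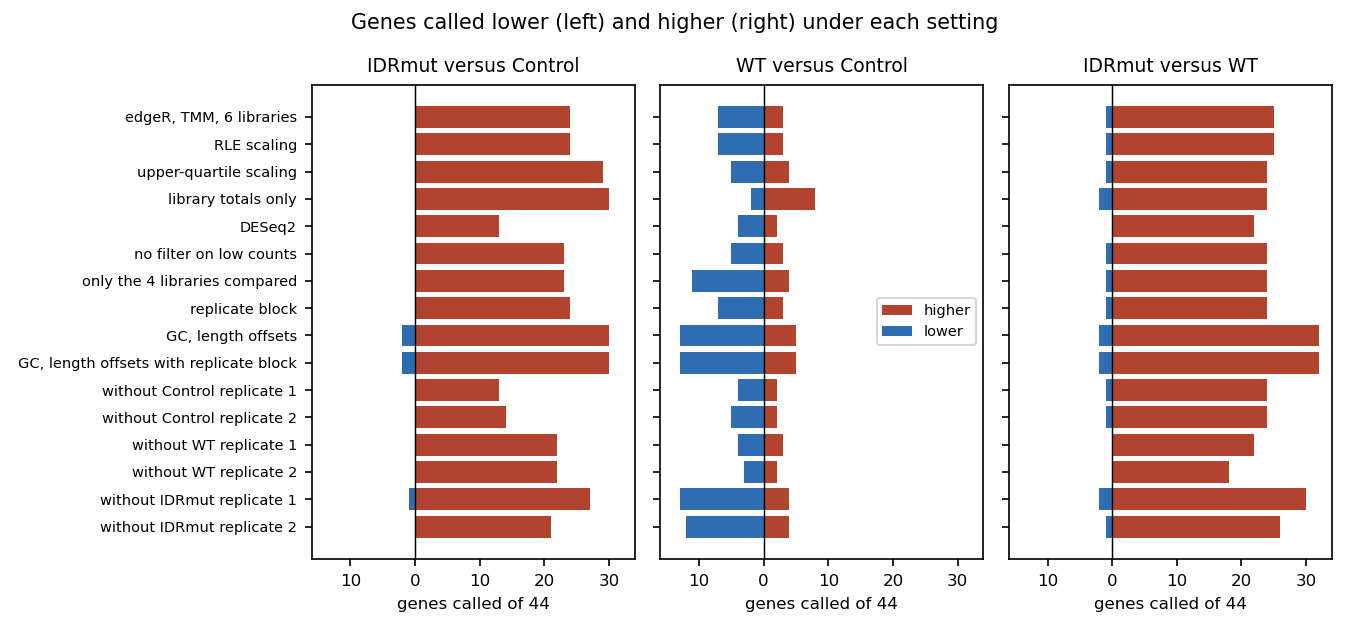
Number of the 44 genes called lower (blue, to the left of 0) and higher (red, to the right) in each comparison (panels) under edgeR with TMM scaling of all 6 libraries (top line) and each of 15 alternatives (lines below). In IDRmut versus Control between 13 and 30 genes are higher, in IDRmut versus WT between 18 and 32, and the split of WT versus Control changes from 3 higher and 7 lower to 8 higher and 2 lower with library totals alone.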

How the data were processed

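The authors deposited raw counts per Ensembl gene for 6 libraries. Per the submitters' processing notes, HISAT2 2.2.1, SAMtools 1.14 and featureCounts 2.0.1 were used with GRCh38; the sources used here do not give the annotation release, the strand setting or how multiply matching reads were treated, so overlapping and antisense genes cannot be told apart. Of 61487 IDs, 61369 matched a current name, 105 a GENCODE name only, and 13 none. Positions, exon lengths and overlaps came from GENCODE release 29 (GRCh38), which may not be the authors' release.

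The low-count filter was filterByExpr of edgeR, with a minimum count of 10 and a minimum total of 15, and it kept 16591 genes. TMM scaling and 1 fit of group means over all 6 libraries were made with edgeR 4.0.16 in R 4.3.3 (quasi-likelihood test, Benjamini-Hochberg, threshold 0.05). SE was computed as the log2 fold change divided by the square root of F. RPKM is CPM per kilobase of exon. The procedure was tested on simulated counts. Alternatives used RLE, upper-quartile or no composition scaling, DESeq2 1.42.0, no filter, 4 libraries only, a replicate block, smooth offsets for GC content and length (mgcv 1.9.3), and leaving out each library. Replicate libraries differed by more than counting error, a spread that may be technical, and each was counted as a sample. The mean chi-square per gene between replicates was 3.73 in IDRmut, 1.55 in WT and 1.70 in Control. The fit shares the spread over the groups, so the SE and p-values of the IDRmut comparisons also draw on the tighter WT and Control libraries. The members, lists and naming rule were chosen with earlier results of these data known. Any of the 44 genes could be named; values in every library are given for the 5 largest called rises and falls per comparison and the smallest adjusted p per role. Of the other lists, the 3 largest called rises and falls are named by their log2 fold changes, WDR3 also by its levels. A gene that this rule names is not reported here.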

Additional observations from a re-analysis of the deposited data

Results flagged for a closer look

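Among the 44 genes, 4 were called in opposite directions in the ACK1 groups against their shared Control and were also called between the ACK1 groups by edgeR's quasi-likelihood test. The log2 difference of IDRmut over WT was 0.26 for POLR1B (adjusted p 2.3e-04), 0.26 for DKC1 (adjusted p 2.7e-05), 0.31 for NOP14 (adjusted p 2.6e-05) and 0.36 for NOP16 (adjusted p 3.5e-05). For each of them both IDRmut libraries were above and both WT libraries below both Control libraries. The difference between the ACK1 groups was called under all 15 alternatives for all 4 genes, while their WT falls were not called with library totals alone and their IDRmut rises over Control were not called with DESeq2. The IDRmut rises were also lost without the second Control library for all 4 genes, and without the first for POLR1B, DKC1 and NOP14. Under DESeq2 and under library totals alone, none of the 4 was thus called in opposite directions against Control.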

How the results depend on the processing

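Among the log2 fold changes of the 44 genes, no called value changed sign under any alternative. Of the calls, 11 of 24 rises in IDRmut over Control, 2 of 3 rises and 2 of 7 falls in WT over Control, and 17 of 25 rises and 0 of 1 falls in IDRmut over WT were kept in all 15 alternatives. The 11 rises in IDRmut over Control were those of POLR1C, NOLC1, NOL6, WDR43, UTP4, UTP14A, HEATR1, RRP12, DDX21, GNL3 and NIP7. Counts below name what moved by over 1.5 times, and causes were not tested. With DESeq2, IDRmut over Control had 13 of the 44 genes, 10 other pathway genes and 1350 of all genes higher; WT over Control had 4 of the 44 lower, 7 other pathway genes higher, and 1613 of all genes higher and 1867 lower; IDRmut over WT had 0 of the 44 lower, 22 other pathway genes higher and 2 lower, and 1099 of all genes higher and 1252 lower. With library totals alone, 1 other pathway gene was lower in IDRmut over Control; WT over Control had 8 of the 44 higher and 2 lower, 20 other pathway genes higher and 11 lower, and 1931 of all genes lower; IDRmut over WT had 2 of the 44 lower. All called genes were higher in 60.2% of cases in IDRmut over Control and 67.2% in WT over Control under that scaling, against 49.5% and 49.8% with TMM. With only the 4 libraries compared, 11 of the 44 were lower in WT over Control and 2 other pathway genes lower in IDRmut over WT.

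With offsets for GC content and length, 2 of the 44 and 10 other pathway genes were lower in IDRmut over Control, 5 of the 44 were higher and 13 lower in WT over Control, and 2 of the 44 were lower in IDRmut over WT. The same offsets with the replicate block gave 2, 9, 5, 13 and 2. The replicate block alone gave 24 higher and 0 lower of the 44 in IDRmut over Control, 3 and 7 in WT over Control, and 24 and 1 in IDRmut over WT. Replicate deviations correlated by -0.044, -0.032 and -0.016 across genes between groups, so the numbers do not show pairing.

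Leaving out 1 library at a time, with a lone library assumed to vary like the other groups, gave these ranges. Of the 44, 13 to 27 were higher and 0 to 1 lower in IDRmut over Control, 2 to 4 higher and 3 to 13 lower in WT over Control, and 18 to 30 higher and 0 to 2 lower in IDRmut over WT. Of the other pathway genes, 12 to 36 were higher and 2 to 10 lower in IDRmut over Control, 6 to 16 and 10 to 31 in WT over Control, and 15 to 50 and 2 to 7 in IDRmut over WT. Of all genes, 1643 to 2623 were higher and 1808 to 2899 lower in IDRmut over Control, 2017 to 3390 and 1944 to 3683 in WT over Control, and 1218 to 2306 and 1372 to 2455 in IDRmut over WT. Depth limits low genes most: NOP2, with 37 to 56 counts per library, had an SE of 0.21 against a median of 0.045 over the 44.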

Other observations

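The genes UTP4, NIP7 and NOB1 lie within 1 interval of chromosome 16 (69131291 to 69754940, GRCh38). UTP4 and NIP7 are 2 of the 3 genes among the 44 called higher in both ACK1 groups. The WT call of UTP4 was kept in only 11 of the 15 alternatives. The interval was chosen after these values were seen, so its values are a description without a test. It holds 13 genes tested. Of these, 6 were called higher and 1 lower in IDRmut over Control, 5 and 1 in WT over Control, and 1 and 1 in IDRmut over WT. Over all genes tested, the shares called higher and lower were 15.6% and 15.9%, 17.4% and 17.6%, and 12.3% and 14.2%. UTP4, NIP7 and NOB1, which led to this choice of interval, are among the 6, and UTP4 and NIP7 among the 5. TERF2, a telomere-binding protein gene between NIP7 and NOB1, averaged 55.2 CPM in IDRmut, 51.8 CPM in WT and 43.5 CPM in Control, with log2 fold changes of 0.34 and 0.25 over Control in IDRmut and WT. VPS4A, a neighbour of NIP7 with 36.4% of its exon bases overlapped, was called lower in both, at -0.14 and -0.12.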
